A study of Sorghum bicolor with 16 samples.

Results

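The regions described here are the 3' UTR peaks of N6-methyladenosine (m6A) that were called in roots of the sweet sorghum strain M-81E and overlapped no peak called in roots of the strain Roma. They were chosen by the authors' peak calls themselves: a peak row of either M-81E list was taken when its annotation began with 3' UTR and when no row of either Roma list on the same chromosome and gene strand shared at least 1 bp with it. This gave 716 of 7988 3' UTR rows in the M-81E salt list and 519 of 7262 in the M-81E control list, 1235 rows among the 38503 rows of all 4 lists. Rows of both M-81E lists that overlapped each other were joined, which left 943 loci on 931 host genes. Of these loci, 286 had a peak in both M-81E lists, 424 in the salt list only and 233 in the control list only.

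The study used roots of Sorghum bicolor plants at the three-leaf phase. Its groups are M-81E under salt, M-81E without salt, Roma under salt and Roma without salt, with M-81E labelled salt-tolerant and Roma salt-sensitive. The sources used here give neither the salt dose nor its duration. Each group had 2 biological replicates per the labels, and each replicate an m6A immunoprecipitated (IP) library and an input library made without antibody. The authors deposited 1 peak list per group, so a peak has no value per replicate, and a gene expression table with 1 value per replicate in FPKM (fragments scaled to transcript length and library size).

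N6-methyladenosine is the most abundant internal modification of messenger RNA. In plants, a methyltransferase complex writes it on nuclear transcripts, demethylases of the ALKBH family can remove it, and proteins with a YTH domain bind it. It lies mostly near the stop codon and in the 3' UTR, where binding proteins can affect how long a transcript lasts, which polyadenylation site is used and how well it is translated. An m6A-seq peak is a stretch of transcript with more IP than input reads, and the ratio of these is its fold enrichment. Whether a peak is called depends on how many reads the transcript contributes as well as on its methylation.

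Every M-81E library was below every Roma library in total FPKM and in genes detected. Summed FPKM ran from 325987 to 371974 in M-81E and from 372362 to 377097 in Roma, and 14477 to 15025 genes reached 1 FPKM in M-81E libraries against 15859 to 16006 in Roma libraries. Root marker genes summed to 2310 to 2980 FPKM in M-81E and to 3650 to 3960 in Roma, and leaf markers to 241 to 311 FPKM in M-81E and 194 to 272 in Roma. Genes of dividing cells summed to 1990 to 3630 FPKM in M-81E and 4550 to 5400 in Roma. In whole roots, fewer cells of a type and less RNA per cell cannot be told apart, and the part of these marker differences in the results below was not tested. The files give no read counts, so depth is unknown.

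The list of Roma under salt set most of the boundary. The M-81E lists held 10255 rows under salt and 10219 without, and the Roma lists 12080 under salt and 5949 without. Against the Roma control list alone, 4063 M-81E loci would have had no counterpart, and against the Roma salt list alone 990. The share without a Roma peak was 8.96% of the 3' UTR rows of the M-81E salt list (95% exact interval 8.35 to 9.61) and 7.15% of those of the control list (6.56 to 7.76). These intervals cover counting error only. In the reverse direction, 1629 of 9310 Roma salt rows and 268 of 4785 Roma control rows in 3' UTRs overlapped no M-81E peak.

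Most M-81E-only loci lay far from any Roma peak. Only 20 of the 1235 rows had a Roma peak within 50 bp on the same strand, 57 within 100 bp and 208 within 1000 bp. The nearest were 28 bp away, in SORBI_3003G004500 at 432582 to 432822 of chromosome 3 with a fold enrichment of 6.44 and in SORBI_3004G355500 at 68285928 to 68286047 of chromosome 4 with 2.96. A peak in SORBI_3001G537600, annotated as an RNA helicase, was 29 bp away. Just outside the limit were SORBI_3001G102300, SORBI_3001G384200 and SORBI_3001G428400, whose M-81E peaks shared 1 bp with a Roma peak and had fold enrichments of 11, 3.55 and 3.87. Of the host genes, 226 (24.3%) carried a Roma peak elsewhere on the gene, and 96 also had another M-81E 3' UTR peak that did overlap Roma. In 5 rows a Roma peak on the opposite strand covered the same bases.

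M-81E-only peaks were most frequent on host genes of low FPKM and among weak peaks. In the salt list, 30.9% of the 3' UTR rows lacked a Roma peak where the host gene averaged under 1 FPKM in Roma, 9.51% between 5 and 10 FPKM and 3.35% at 50 FPKM or more. The control list gave 29.0%, 8.89% and 1.40% in the same ranges. By host level in M-81E the order was alike, with 21.2% under 1 FPKM and 5.45% at 50 FPKM or more in the salt list, and 18.4% and 3.16% in the control list. By fold enrichment, 56.2% of salt rows under 2 lacked a Roma peak, against 2.06% at 50 or more, and 33.3% and 3.76% of control rows. Short peaks followed the same order, with 37.8% of salt rows under 100 bp of exon and 1.21% of those of 300 bp or more. Fold enrichment and length come from the calls that chose the loci, so these shares describe the loci and test nothing.

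**Figure D1:**
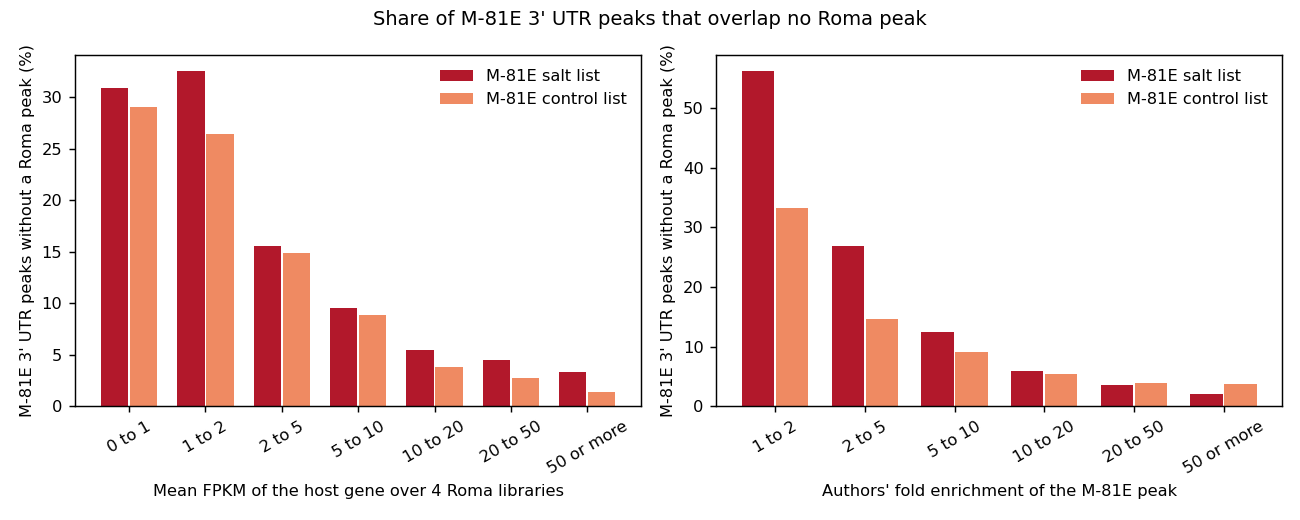
Share of M-81E 3' UTR peak rows that overlap no Roma peak (%, vertical axes) by the mean FPKM of the host gene over the 4 Roma libraries (left) and by the authors' fold enrichment (right), with dark bars for the salt list and light bars for the control list. The share is near 30% under 1 FPKM in Roma and 1.40% to 3.35% at 50 FPKM or more.

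As a group these peaks were weaker and shorter than the M-81E 3' UTR peaks that overlapped Roma. Their median fold enrichment was 6.45 in the salt list, against 16.4 for 7272 overlapping rows, and 7.61 in the control list, against 14.5 for 6743 rows. Median exonic length was 150 bp in both lists, against 269 bp in the salt list and 267 bp in the control list. Roma-only 3' UTR peaks were likewise weaker and shorter than Roma 3' UTR peaks that overlapped M-81E. Their median fold was 12.7 against 28.6 in the Roma salt list and 10.9 against 20.7 in the Roma control list. Their median exonic lengths were 179 against 298 bp and 120 against 239 bp. Peaks found in both M-81E lists were stronger than those found in a single list. Loci of both lists had medians of 9.01 under salt and 8.19 without salt, while salt-only loci had 5.28 and control-only loci 6.71. Within host genes of 2 to 10 FPKM, the median fold was 6.72 for M-81E-only rows and 14.7 for overlapping rows of the salt list, and 8.86 and 13.9 in the control list. The host level still differed inside this window, with a median of 4.6 FPKM for M-81E-only and 5.75 for overlapping rows of the salt list, and 4.44 and 5.86 in the control list.

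Their place in the transcript differed too. The distal edge of an M-81E-only peak lay a median of 120 bp (salt) and 119 bp (control) from the annotated gene end, against 59 bp for overlapping peaks in either list. It coincided with the gene end in 14.0% of salt rows and 16.4% of control rows, against 34.8% and 35.0% of overlapping rows. Salt-only peaks ended there in 9.11% of rows. Within host genes of 2 to 10 FPKM, the edge coincided with the gene end in 14% of M-81E-only and 22.8% of overlapping salt rows. In the control list these shares were 15.2% and 22.7%. Median distances in this window were 120 and 90 bp (salt) and 119 and 89 bp (control). Roma-only 3' UTR rows ended at the gene end in 17.6% (salt) and 8.58% (control), against 40.3% and 24.9% of Roma rows overlapping M-81E. Host genes of M-81E-only rows were also somewhat shorter, with median genomic lengths of 4025 bp (salt) and 4137 bp (control) against 4732 bp and 4802 bp for hosts of overlapping rows.

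**Figure D2:**
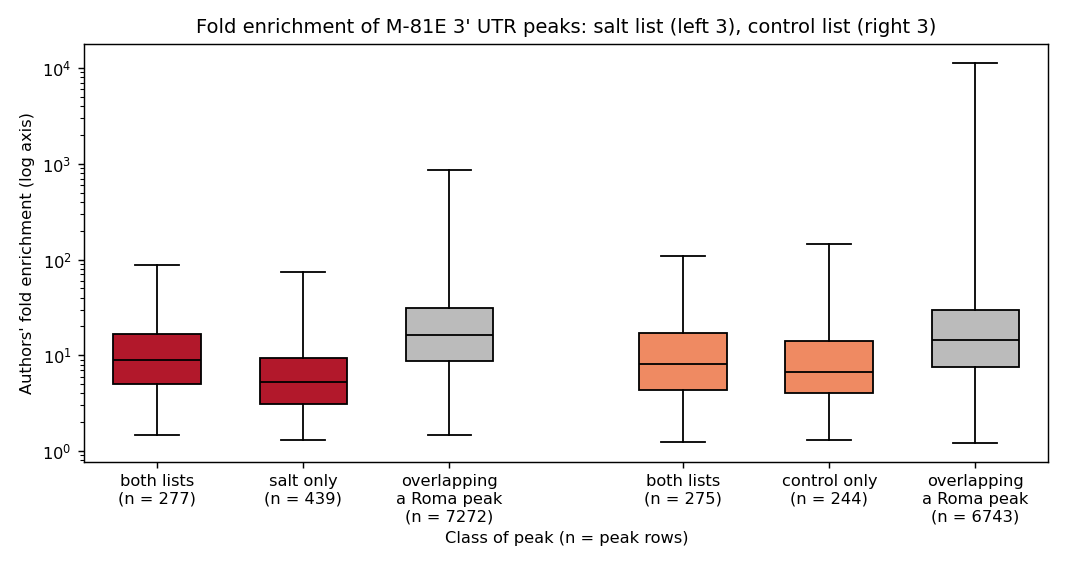
Authors' fold enrichment (log axis) of M-81E 3' UTR peaks in the salt list (left 3 boxes) and the control list (right 3 boxes). Boxes span the quartiles with the median as a line and whiskers reach the lowest and highest row; M-81E-only peaks are coloured and peaks overlapping Roma grey, with medians of 9.01, 5.28 and 16.4 in the salt list and 8.19, 6.71 and 14.5 in the control list.

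Peaks that recurred in M-81E kept their rank between treatments in a loose way. In 252 of the 286 loci both lists held a 3' UTR row without a Roma overlap. At the other 34 the overlapping row of the second list touched a Roma peak or was annotated outside the 3' UTR. Over these 252 loci the median fold enrichment was 9.79 in the salt list and 8.71 in the control list, with a median log2 ratio of 0.28 for salt over control. The 2 values were within 2-fold at 158 loci, salt was more than 2-fold higher at 52 and control at 42. Spearman's rho across loci was 0.66, as a description, since all loci share the same libraries. Peaks shared with Roma had a like spread, with 68.2% of 6229 within 2-fold against 62.7% here. No fold enrichment has a replicate value, so none of these differences could be tested.

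**Figure D3:**
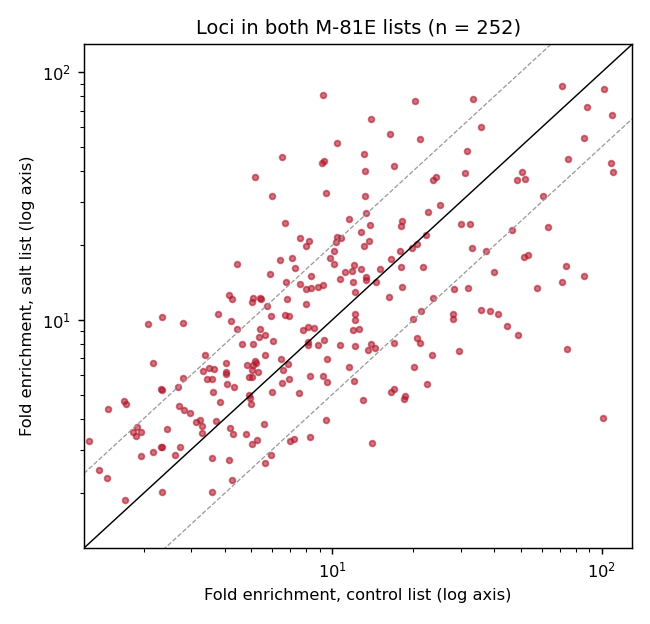
Fold enrichment of the 252 M-81E-only loci with a row in both lists, salt list on the vertical and control list on the horizontal log axis. Each point is a locus, the solid line marks equal values and the dashed lines a 2-fold difference, which 158 loci stay within.

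One of the strongest loci of both lists sat on SORBI_3002G273300. This gene is annotated to transcription factor binding and photomorphogenesis, and its peak at 65646654 to 65646980 of chromosome 2 in the control list ended 30 bp from the gene end. Fold enrichment was 66.9 under salt and 109 without. The nearest Roma peak was 28790 bp away. The host gene had 13.6 and 15.9 FPKM in M-81E salt libraries and 13.0 and 9.94 in M-81E control libraries, against 1.36 and 2.05 in Roma salt and 4.49 and 4.07 in Roma control. All 4 M-81E libraries were above all 4 Roma libraries. On the log2(FPKM + 1) scale the strain difference was 2.55 ± 0.233 (SE) under salt (limma, Benjamini-Hochberg adjusted p = 0.00391) and 1.23 ± 0.233 without salt (limma adjusted p = 0.0272). The call under salt held under all 14 alternatives, and that without salt held under 8 of 14 and was lost, among others, when any single Roma library was left out and with only the 2 groups fitted.

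Strong peaks also lay on host genes with other roles. SORBI_3010G071900, annotated as a cinnamyl-alcohol dehydrogenase, the enzyme of the last reduction in monolignol synthesis, had folds of 54.3 under salt and 85.8 without. SORBI_3006G055800, annotated to the Tat protein import system of thylakoids, had 78.0 and 33.4. SORBI_3001G310700, a serine/threonine kinase annotated to abscisic acid response and brassinosteroid signalling, had 13.5 and 57.7. SORBI_3002G180400, annotated as isochorismate synthase, an entry enzyme of salicylic acid and phylloquinone synthesis, had 85.4 and 102. SORBI_3001G125100, annotated to the second catalytic step of splicing, had 76.8 and 20.3. SORBI_3002G293000, annotated as a transcription factor, differed most between lists among these, with 4.02 under salt and 101 without.

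The host genes of loci in both lists had higher median levels in M-81E than in Roma. Their median FPKM was 6.11 and 6.27 in M-81E salt libraries and 6.54 and 6.89 in M-81E control libraries, against 3.95 and 4.30 in Roma salt and 4.34 and 4.66 in Roma control. The groups of medians did not overlap. Hosts of salt-only loci ran from 4.45 to 5.14 FPKM in M-81E and 4.88 to 5.63 in Roma, and hosts of control-only loci from 4.23 to 4.85 in M-81E and 4.28 to 5.15 in Roma, so that these ranges overlapped. Hosts of 3' UTR peaks shared with Roma were higher in Roma, with 11.2 to 13.6 FPKM in M-81E and 14.7 to 15.6 in Roma. Of 925 hosts in the expression table, 76 averaged at least 1 FPKM in M-81E and under 1 in Roma, and 29 the reverse. Among the 283 hosts of loci in both lists that are in the table, these were 37 and 5. Of all 16280 genes with a mean of at least 1 FPKM, these were 564 (3.46%) and 1102 (6.77%). Of 7261 hosts of peaks shared with Roma, they were 63 and 76.

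Tested gene by gene, 825 of the 931 host genes had a mean of at least 1 FPKM. The other 106 were 100 hosts below that level and 6 absent from the table. Without salt, 95 of the 825 were higher and 25 lower in M-81E than in Roma by limma at a Benjamini-Hochberg adjusted p under 0.05, which is 11.5% and 3.03%, against 3.76% higher and 8.35% lower (12.1% in all) of all 16280 genes. Under salt, 73 were higher (8.85%) and 25 lower (3.03%), against 2.41% and 6.0% (8.42% in all). The share of higher genes was largest for loci in both lists. Without salt, 59 of their 263 tested hosts were higher and 4 lower, with a median log2 difference of 0.35 against −0.30 for all genes tested. Salt-only hosts gave 20 higher and 12 lower of 371 (median −0.02) and control-only hosts 19 higher and 9 lower of 198 (median −0.04). Hosts of peaks shared with Roma gave 206 higher and 442 lower of 7078 (median −0.27). Hosts of Roma-only 3' UTR peaks, leaving out hosts of M-81E-only loci, went the other way. They gave 16 higher (1.11%) and 216 lower (15%) of 1441 (median −0.55), and under salt 8 higher and 191 lower (median −0.56).

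Under salt the picture was the same, with 43 higher and 7 lower of the 263 hosts of loci in both lists and a median of 0.46, against −0.29 for all genes. All 4 M-81E libraries lay above all 4 Roma libraries for 79 of these 263 hosts (30%), against 6.95% of all genes, and below them for 24 (9.13%), against 22.2%. Peak calling needs reads from the transcript, and the FPKM columns carry the names given in the descriptions of the IP samples. No label states outright whether FPKM came from input or IP reads. These counts are therefore not independent of how the loci were chosen and are given as a description. The p-values weigh each strain difference against the spread between replicates, pooled over all groups, and cover only these samples. Quantile scaling moved the median of all genes by 0.27 and changed the calls over all hosts to 120 higher and 11 lower without salt, and 94 higher and 11 lower under salt; the median of hosts of both lists minus that of all genes was 0.65 without salt in the unscaled values and 0.68 after scaling. Leaving out a single library moved the number of calls without salt to between 27 (Roma control replicate 1 or 2 left out) and 244 (M-81E control replicate 1 left out), and by over 1.5 times for every library other than the M-81E salt replicates. Under salt it ran from 22 (without Roma salt replicate 1) to 216 (without M-81E control replicate 1), and every library moved it by over 1.5 times.

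**Figure D4:**
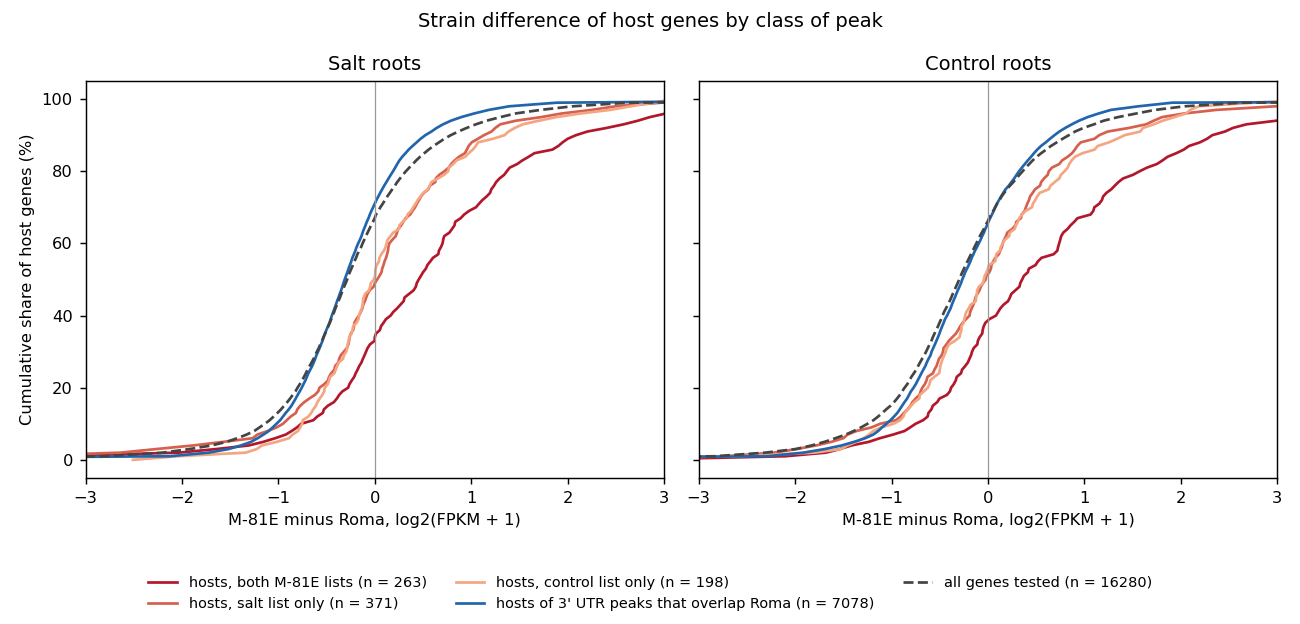
Cumulative share of host genes (%) by the log2(FPKM + 1) difference of M-81E minus Roma under salt (left) and without salt (right). The axis ends at −3 and 3. Lines are host genes of M-81E-only loci by class, host genes of 3' UTR peaks shared with Roma and all genes tested (dashed); the line of loci in both lists lies to the right, with medians of 0.46 and 0.35.

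A transcription factor gene, SORBI_3007G047400, had one of the clearest strain differences. It is annotated to circadian rhythm and to responses to salt, cold and abscisic acid. FPKM was 52.2 and 51.3 in M-81E salt libraries and 42.0 and 62.5 in M-81E control libraries, against 0.607 and 0.802 in Roma salt and 0.349 and 0.353 in Roma control. Every M-81E library was above 40 FPKM and every Roma library under 1. The log2 difference was 4.95 ± 0.237 under salt (limma adjusted p = 0.000653) and 5.27 ± 0.237 without (limma adjusted p = 0.000632), and both held under all 14 alternatives. Its peak had folds of 9.16 under salt and 12.6 without, and no Roma peak lay within 82879 bp.

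SORBI_3004G013200, annotated as an ionotropic glutamate receptor with calcium channel activity, had 12.7 and 9.43 FPKM in M-81E salt libraries and 24.6 and 43.5 in M-81E control libraries, against 0.102 and 0.129 in Roma salt and 0.181 and 0.308 in Roma control. Roma was near 0 in every library. Its peak had folds of 17.8 under salt and 9.86 without. The strain difference was 3.42 ± 0.309 under salt (limma adjusted p = 0.00383) and 4.76 ± 0.309 without (limma adjusted p = 0.00147). The gene numbered next to it, SORBI_3004G013300, carries the same receptor annotation and also held a peak in both lists (folds 19.9 under salt and 8.03 without), yet its level did not separate the strains. It had 25.8 and 20.1 FPKM in M-81E salt libraries and 21.6 and 42.5 in M-81E control libraries, against 28 and 25.2 in Roma salt and 16.7 and 15.4 in Roma control. No source used here says how reads of such like genes were divided, so the values of both are uncertain.

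SORBI_3010G165700, annotated as a DNA helicase of telomere maintenance and repair, was by FPKM present in M-81E and nearly absent from Roma. FPKM was 12.0 and 11.2 in M-81E salt libraries and 12.1 and 19.5 in M-81E control libraries, against 0.0123 and 0.0211 in Roma salt and 0.0325 and 0.0207 in Roma control. It had a locus in both lists with folds of 22.0 and 22.2 and another in the salt list with 2.88. The log2 difference was 3.63 ± 0.255 under salt (limma adjusted p = 0.00192) and 4.00 ± 0.255 without (limma adjusted p = 0.00147). SORBI_3002G152800, an RNA-binding protein gene with chloroplast terms, had 6.97 and 8.61 FPKM in M-81E salt and 11.5 and 12.1 in M-81E control, against 1.78 and 0.962 in Roma salt and 1.62 and 1.69 in Roma control. Its folds were 56.2 under salt and 16.4 without. The difference was 2.27 ± 0.237 without salt (limma adjusted p = 0.00522) and lost its call when either Roma control library was left out; under salt it was 1.91 ± 0.237 (limma adjusted p = 0.0096), a call lost without Roma salt replicate 2.

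SORBI_3008G106800, described as an isoflavone reductase homolog and annotated to pinoresinol and lariciresinol reduction in lignan synthesis, had 33.0 and 29.7 FPKM in M-81E salt and 29.6 and 42.0 in M-81E control, against 2.13 and 4.16 in Roma salt and 2.91 and 0.485 in Roma control. The strains did not overlap, and the difference was 3.01 ± 0.501 under salt (limma adjusted p = 0.0228) and 3.91 ± 0.501 without (limma adjusted p = 0.00958). The call under salt was lost when any single salt library was left out and at a pseudocount of 0.1, and that without salt with only the 2 groups fitted. SORBI_3010G071900, the cinnamyl-alcohol dehydrogenase named above, had 15.4 and 18.4 FPKM in M-81E salt and 23.9 and 42.2 in M-81E control, against 5.41 and 5.35 in Roma salt and 6.16 and 8.17 in Roma control. It was higher by 1.49 ± 0.307 under salt (limma adjusted p = 0.0416) and by 2.02 ± 0.307 without (limma adjusted p = 0.0153). Leaving out either Roma control library ended both calls, and leaving out either Roma salt or either M-81E salt library also ended the call under salt. With only the 2 groups fitted the call without salt was lost.

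**Figure D5:**
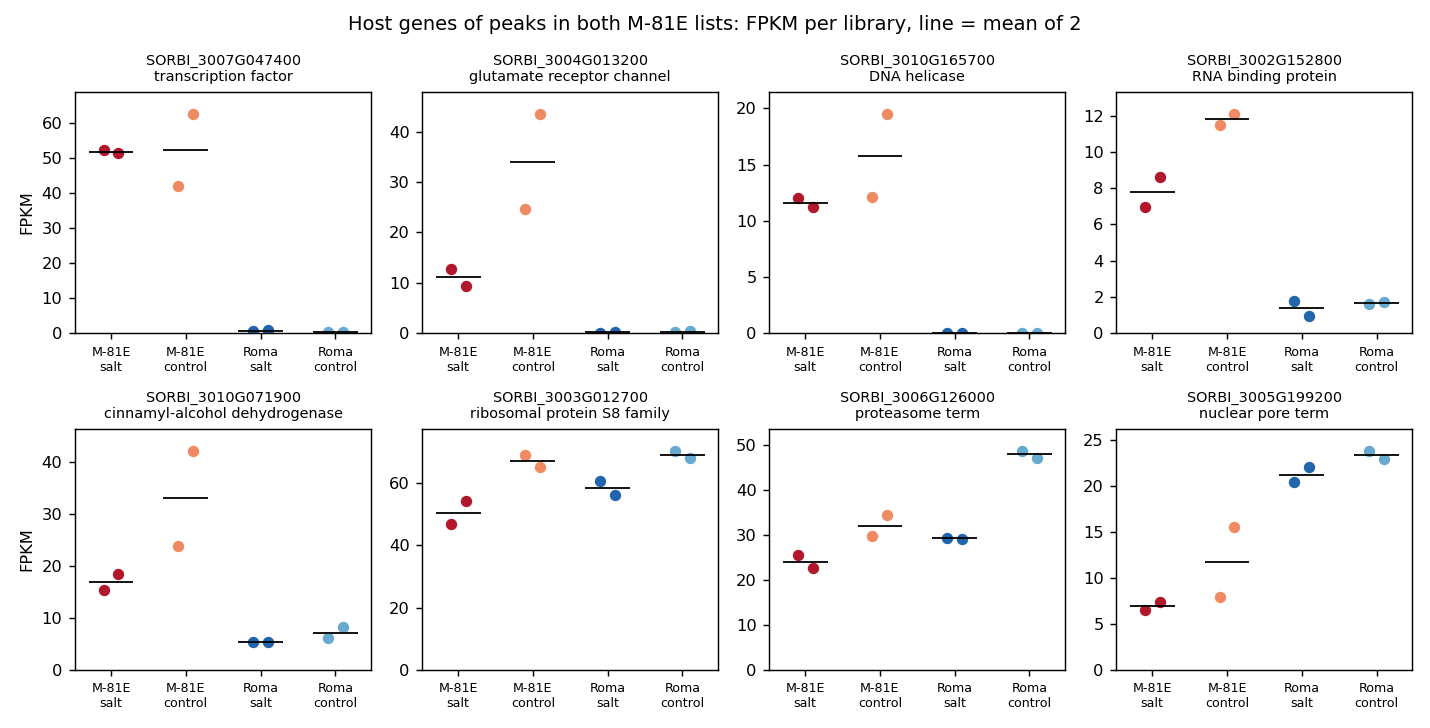
FPKM of 8 host genes of loci in both M-81E lists in each library (points), by group, with the mean of the 2 libraries as a line. The upper row shows genes near 0 or low in Roma, and the lower row holds SORBI_3003G012700, at similar levels in both strains, and SORBI_3005G199200, with 6.51 to 15.5 FPKM in M-81E and 20.4 to 23.8 in Roma.

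Other loci stood on genes that Roma expressed too. Of the 252 loci, 87 had a fold enrichment of at least 10 in both M-81E lists. Their host gene reached 5 FPKM in every Roma library at 25 of them, and 23 of these genes had no Roma peak anywhere. This set was chosen after the values were seen and is a description. In 7 of the 23 all M-81E libraries were below all Roma libraries, in 7 they were above, and in 9 the strains overlapped, where 22.2% of all genes tested were below and 6.95% above without the filter on Roma level.

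Among those below Roma in all M-81E libraries was SORBI_3005G199200, annotated to the outer ring of the nuclear pore and to mRNA export. Its peak, at 68459980 to 68460427 of chromosome 5 on the minus strand in the control list, had folds of 72.2 under salt and 88.2 without, and no Roma peak lay within 30513 bp. FPKM was 6.51 and 7.34 in M-81E salt and 7.86 and 15.5 in M-81E control, against 20.4 and 22.0 in Roma salt and 23.8 and 22.9 in Roma control. Roma was higher in every library. The difference was −1.49 ± 0.310 under salt (limma adjusted p = 0.0423, lost after quantile scaling and when any library other than the M-81E control ones was left out) and −1.01 ± 0.310 without (limma adjusted p = 0.0846). SORBI_3006G126000, annotated to proteasomal protein breakdown, had folds of 60.2 and 35.7 with 25.5 and 22.6 FPKM in M-81E salt and 29.7 and 34.4 in M-81E control, against 29.4 and 29.2 in Roma salt and 48.8 and 47.2 in Roma control. Neither of its strain differences was called (limma adjusted p = 0.349 under salt and 0.0878 without).

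SORBI_3005G092000, annotated only to protein binding, was the most extreme case, with folds of 16.4 and 18.0 although its FPKM was far higher in Roma. FPKM was 1.74 and 2.11 in M-81E salt and 2.77 and 0.839 in M-81E control, against 38.2 and 29.1 in Roma salt and 21.8 and 23.3 in Roma control. SORBI_3004G115800, annotated as a membrane protein, had folds of 43.2 and 108 at 5.92 to 7.19 FPKM in M-81E salt and 3.93 to 7.20 in M-81E control, against 9.97 to 10.4 in Roma salt and 9.03 to 10.4 in Roma control. SORBI_3006G153900, annotated to lipid transport, had folds of 39.8 and 13.2. Its FPKM was 13.2 and 19.2 in M-81E salt and 13.5 and 26.2 in M-81E control, against 24.8 and 25.9 in Roma salt and 29.6 and 27.5 in Roma control. SORBI_3005G028400, annotated as a calcium-transporting ATPase of the plasma membrane, went the other way with folds of 23.9 and 18.0 and 64.5 to 156 FPKM in M-81E against 34.9 to 52.9 in Roma.

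Genes of sucrose use were among these strong loci. SORBI_3003G153800 and SORBI_3001G391600 are annotated with sucrose alpha-glucosidase activity, which splits sucrose into its hexoses, and SORBI_3004G004800 is described as a soluble acid invertase, which does the same in the vacuole. SORBI_3003G153800 had folds of 19.6 under salt and 33.0 without. Its FPKM was 31.4 and 27.6 in M-81E salt and 43.0 and 39.8 in M-81E control, against 17.8 and 18.0 in Roma salt and 11.5 and 8.53 in Roma control, with every M-81E library above every Roma library. It was called without salt, at 1.96 ± 0.207 (limma adjusted p = 0.00548, lost without Roma control replicate 2 and with only the 2 groups fitted), and not under salt (limma adjusted p = 0.0964). SORBI_3001G391600 had folds of 25.2 and 18.2, with 29.4 and 30.3 FPKM in M-81E salt and 41.9 and 62.6 in M-81E control, against 16.4 and 23.6 in Roma salt and 25.8 and 18.5 in Roma control. The invertase had folds of 15.6 and 39.9. Its 24.1 and 26.1 FPKM in M-81E salt and 93.6 and 36.2 in M-81E control, against 14.0 and 18.6 in Roma salt and 34.2 and 38.5 in Roma control, overlapped between strains. The last 2 genes passed no strain test (limma adjusted p of 0.0535 to 0.397).

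Of hosts of loci in both lists, 41 reached 10 FPKM in every library, and 17 of these differed between strains by under 0.5 on the log2(FPKM + 1) scale without salt. Among the smallest differences was that of SORBI_3003G012700, a ribosomal protein S8 family gene of the small ribosomal subunit, with folds of 6.68 and 4.05. It had 47.0 and 54.2 FPKM in M-81E salt and 69.0 and 65.3 in M-81E control, against 60.9 and 56.4 in Roma salt and 70.5 and 68.0 in Roma control. Within a treatment the 2 strains were close, at −0.21 ± 0.175 under salt and −0.04 ± 0.175 without. SORBI_3004G178500, a transcription factor annotated to auxin response and leaf senescence, ran from 24.3 to 26.5 FPKM in M-81E and 26.1 to 28 in Roma. Its peak was weak, with a fold of 1.92, and a Roma peak lay 89 bp away. SORBI_3010G262500, annotated as glyceraldehyde-3-phosphate dehydrogenase of glycolysis, was the most abundant host of a locus in both lists. It had 247 and 307 FPKM in M-81E salt and 324 and 257 in M-81E control, against 896 and 884 in Roma salt and 851 and 749 in Roma control, and folds of 4.66 and 3.85.

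Salt-only loci were the largest class. Their rows had a fold under 2 in 5.47% of cases, and control-only rows in 6.15%. Among annotated host genes averaging at least 5 FPKM, strong ones were SORBI_3002G429300, annotated to import of transcription factors into the nucleus, with a fold of 54.3 and a Roma peak 358 bp away, and SORBI_3006G262900, annotated to peroxisome organization, with 46.7. The peroxisome gene had 6.36 and 7.69 FPKM in M-81E salt and 7.77 and 8.64 in M-81E control, against 6.26 and 6.74 in Roma salt and 6.96 and 7.05 in Roma control, with all 8 libraries between 6.26 and 8.64. SORBI_3002G431600, a kinase annotated to innate immunity and brassinosteroid signalling, had a fold of 31.6 and was lower in M-81E under salt, at −1.07 ± 0.212 (limma adjusted p = 0.0374). That call held under 5 of 14 alternatives and was lost, among others, after quantile scaling, with only the 2 groups fitted, and when any single Roma or M-81E salt library was left out. SORBI_3001G373100, a ubiquitin transferase annotated to defence, had a fold of 25.4 and its highest levels where the peak was. It had 12.0 and 11.7 FPKM in M-81E salt and 7.44 and 5.22 in M-81E control, against 3.88 and 5.07 in Roma salt and 5.44 and 4.54 in Roma control.

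Genes annotated to stress responses were among the salt-only hosts, without being more frequent for salt stress. Those annotated to the salt stress response were 7 of the 423 salt-only hosts. Over all hosts their share was 1.5%, against 2.1% of hosts of peaks shared with Roma and 1.7% of genes tested. SORBI_3003G363400, a transcription factor annotated to salt, cold, drought and abscisic acid responses, had a fold of 30.3 at low levels of 0.341 and 1.12 FPKM in M-81E salt and 0.809 and 0.993 in M-81E control, against 0.509 and 0.757 in Roma salt and 1.30 and 1.63 in Roma control. SORBI_3001G312500, a protein phosphatase annotated to transcription in the salt response, had a fold of 8.66. Its FPKM was 18.2 and 22.0 in M-81E salt and 14.1 and 6.70 in M-81E control, against 36.9 and 40.2 in Roma salt and 23.3 and 23.4 in Roma control. Salt libraries were above control libraries in each strain, while the salt test was not passed in either. SORBI_3005G216800, annotated to recognition of the 3' splice site, had a fold of 64.4 with 1.85 and 2.41 FPKM in M-81E salt and 2.10 and 2.27 in M-81E control, against 1.49 and 1.62 in Roma salt and 1.5 and 1.32 in Roma control.

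Control-only loci held the highest fold of all M-81E-only rows. It was 147, in SORBI_3003G153600, an esterase annotated to lipid breakdown, which had 17.1 and 15.3 FPKM in M-81E salt and 12.9 and 3.28 in M-81E control, against 2.34 and 1.78 in Roma salt and 1.5 and 0.832 in Roma control. Both salt libraries of M-81E, where no peak was called, were above both control libraries. A lipase gene, SORBI_3004G243500, had a fold of 74.0 with 15.8 and 14.0 FPKM in M-81E salt and 28.9 and 11.6 in M-81E control, against 4.51 and 2.50 in Roma salt and 9.26 and 9.23 in Roma control. SORBI_3006G056400, a corepressor annotated to jasmonate signalling and wounding, had a fold of 41.4. Its FPKM was 28.7 and 38.1 in M-81E salt and 50.1 and 76.6 in M-81E control, against 37.0 and 34.7 in Roma salt and 30.9 and 28.6 in Roma control, so that the highest libraries were those with the peak. SORBI_3001G185400, a drug transporter, had a fold of 107, and SORBI_3001G135100, a magnesium transporter, 78.4, both at under 6 FPKM in every library.

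Salt changed few host genes. In M-81E, 2 of the 825 tested hosts rose and 4 fell under salt by limma at an adjusted p under 0.05, which is 0.242% and 0.485%, against 0.209% and 0.283% (0.491% in all) of all genes. Without adjustment, the limma p in M-81E was under 0.05 for 144 of these hosts, against 2085 of all 16280 genes. In Roma 0 hosts were called by limma, against 0.332% higher and 0.141% lower (0.473% in all) of all genes. An unadjusted limma p under 0.05 was found for 106 of the 825 hosts, against 1924 of all 16280 genes. The difference of the salt changes, M-81E minus Roma, was called for 0 hosts, against 0.0491% higher and 0.129% lower (0.178% in all) of all genes. Its unadjusted limma p was under 0.05 for 93 of the 825 hosts, against 1421 of all 16280 genes. Leaving out M-81E control replicate 1, the group whose replicates varied most, brought these 3 counts to 200, 16 and 66. Without M-81E control replicate 2 they were 8, 16 and 5, and without any other single library at most 7, 5 and 5, with 1 or 2 calls in M-81E when a Roma library or M-81E salt replicate 1 was left out.

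The level of a host and the treatment in which its peak was called did not always go together. SORBI_3003G142300, a nuclear protein gene with a control-only peak of fold 2.23, had 10.6 and 7.05 FPKM in M-81E salt and a listing of 0 in either M-81E control library, against 61.6 and 47.1 in Roma salt and 30 and 38.1 in Roma control. It rose under salt in M-81E (limma adjusted p = 0.0122). SORBI_3006G194200, also annotated to the nucleus, had a control-only peak of fold 6.83, 7.48 and 4.67 FPKM in M-81E salt and a listing of 0 in either M-81E control library, against 0.0259 and 0.133 in Roma salt and 0.163 and 0 in Roma control. It too rose under salt (limma adjusted p = 0.0179). In both genes the peak list held a peak where the expression table listed 0. SORBI_3008G004400, annotated to the vacuolar membrane, had the mirror pattern with a salt-only peak of fold 2.98. It had 0.166 and 0.164 FPKM in M-81E salt and 5.41 and 9.38 in M-81E control, against 10.2 and 10.5 in Roma salt and 12.1 and 12.3 in Roma control, a salt change of −2.81 ± 0.261 in M-81E (limma adjusted p = 0.0179).

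The other 3 had control-only peaks and fell with salt in M-81E. SORBI_3003G366700, annotated as a flavonoid glucosyltransferase, had a listing of 0 in either M-81E salt library with 16.2 and 7.37 FPKM in M-81E control, against 3.91 and 4.00 in Roma salt and 1.54 and 2.10 in Roma control (limma adjusted p = 0.0214). SORBI_3001G208300, with no GO term in the table, had 33.9 and 31.6 FPKM in M-81E salt and 85.4 and 99.2 in M-81E control, against 15.2 and 15.2 in Roma salt and 27.8 and 27.3 in Roma control. Salt libraries were below control libraries in both strains, at −1.46 ± 0.175 in M-81E (limma adjusted p = 0.0388) and −0.82 ± 0.175 in Roma (limma adjusted p = 0.151). SORBI_3003G281200, a ribose-phosphate diphosphokinase that makes the precursor of nucleotides, had 7.06 and 9.65 FPKM in M-81E salt and 36.4 and 52.0 in M-81E control, against 4.51 and 4.90 in Roma salt and 8.86 and 12.2 in Roma control. Its change in M-81E was −2.26 ± 0.277 (limma adjusted p = 0.0403). All 6 salt calls were lost under several alternatives; they held under 4 to 6 of them, other than that of SORBI_3003G142300, which held under 12. SORBI_3001G208300 had a Roma peak 178 bp away.

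A few peaks stood on genes listed at 0 in M-81E. SORBI_3004G018400, annotated as a peptidyl-prolyl isomerase of protein folding, had a salt-only peak of fold 1.82 although all 4 M-81E libraries were listed at 0, against 47.1 and 15.9 FPKM in Roma salt and 46.3 and 32.2 in Roma control. SORBI_3006G273800, annotated to the CCR4-NOT deadenylation complex, had a salt-only peak of fold 2.22. Its M-81E salt values were listed at 0, with 0 and 11.3 FPKM in M-81E control, against 92.1 and 65.8 in Roma salt and 78.5 and 74.6 in Roma control. SORBI_3001G422900, annotated to polyubiquitination, had a salt-only peak of fold 2.53 with M-81E salt values listed at 0 and 59.8 and 42.9 FPKM in M-81E control, against 22.7 and 0 in Roma salt and 0 in both Roma control libraries. All 3 peaks had folds under 3.

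By the GO terms of the deposited table, 794 of the 931 hosts carried a term other than the 3 root terms. The groups below were drawn from words in the GO terms and descriptions. Transcription factors made up 5.26% of hosts (49 genes), against 3.26% of hosts of peaks shared with Roma and 4.13% of genes tested. Ion and solute transport made up 5.59% (52 genes), against 3.76% and 4.36%. Ribosome and translation genes were 1.18% (11 genes), against 3.98% and 2.54%, and RNA binding, splicing and mRNA processing genes 3.97% (37 genes), against 6.58% and 4.61%. These shares are counts with no test. Neither of the 2 genes annotated to mRNA methylation was a host; both carried 3' UTR peaks shared with Roma.

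Of 49 ion and solute transport hosts tested, 10 were higher and 0 lower without salt (median log2 difference 0.59) and 6 higher and 0 lower under salt (median 0.23), while of the 710 transport genes tested in all, 31 were higher and 89 lower without salt. Hosts annotated to abscisic acid gave 6 higher and 0 lower of 17 without salt (median 0.38), hosts annotated to salt stress 4 higher and 2 lower of 12 (median 0.48), and protein kinases 7 higher and 0 lower of 43 (median 0.14). Transcription factors gave 5 higher and 1 lower of 44 (median −0.03) and RNA-processing genes 4 higher and 2 lower of 33 (median −0.02). Carbohydrate metabolism hosts gave 2 higher and 2 lower of 15 (median 0.75), and the 14 cell wall hosts tested had a median of −0.48. Under salt the same lists gave other values. Abscisic acid hosts were 2 higher and 0 lower (median 0.43), salt stress hosts 2 higher and 1 lower (median 0.40) and kinases 2 higher and 1 lower (median 0.27). Transcription factors were 5 higher and 0 lower (median 0.54), RNA-processing genes 1 higher and 2 lower (median −0.19), and carbohydrate hosts 1 higher and 1 lower (median 0.68). Cell wall hosts had a median of 0.52, opposite in sign to that without salt. Of all hosts tested, 11.5% were higher and 3.03% lower without salt, and 8.85% and 3.03% under salt. Of all genes tested, 3.76% were higher and 8.35% lower without salt, and 2.41% and 6.0% under salt. The counts of these lists are to be read against the shares of all hosts as well as of all genes. SORBI_3002G250300, annotated as a cinnamoyl-CoA reductase of lignin synthesis and to drought and abscisic acid responses, was among the higher hosts, with a control-only peak of fold 29.3. It had 5.46 and 5.08 FPKM in M-81E salt and 5 and 8.50 in M-81E control, against 1.27 and 1.49 in Roma salt and 1.73 and 1.31 in Roma control, a difference of 1.40 ± 0.269 under salt (limma adjusted p = 0.0342) and 1.59 ± 0.269 without (limma adjusted p = 0.0203). The call under salt held under 5 of 13 alternatives and was lost when any single Roma or M-81E salt library was left out, and that without salt held under 8 of 13 and was lost when any single Roma library was left out.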

How the data were processed

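Peak lists and expression values came from m6A-seq of polyadenylated root RNA, sequenced as strand-specific paired ends per the labels. The authors deposited 1 peak list per group with a fold enrichment, the ratio of IP to input in each peak, and a score per peak, the log10 of its p-value and false discovery rate, per the file headers. Expression was deposited by the authors as FPKM per gene and replicate, under column names that match the descriptions of the IP samples. HISAT2, StringTie, edgeR, ChIPseeker, FastQC and cutadapt are listed, with no role, per the submitters' processing notes; no source used here names the peak caller, the genome build or whether replicates were pooled. Coordinates are those of the files.

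Overlaps were computed with Python 3.11.15 and pandas 2.3.3 at a minimum of 1 bp on the same gene strand. log2(FPKM + 1) was fitted with limma 3.58.1 in R 4.3.3 for the 16280 of 29033 genes with a mean of at least 1 FPKM, with 4 group means and a trended variance, and p-values were adjusted over all of them by Benjamini-Hochberg at 0.05. The fit was tested on simulated data. A fold change on this scale understates the change of low genes. Named genes are, per class, those of highest fold enrichment (mean of at least 5 FPKM) and highest level, the largest strain differences, all salt calls, the most similar levels, the peaks nearest the overlap limit and up to 3 per gene list. The members, lists and tests were chosen with earlier results of these data known. Gene lists were made from words in the GO terms and descriptions of the deposited table.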

Additional observations from a re-analysis of the deposited data

How the results depend on the processing

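The number of M-81E-only loci, 943, stayed between 712 and 1252 under 9 other settings of overlap, strand, threshold and host level, of which overlap of exon blocks was chosen after seeing the data. Against the Roma control list alone it was 4063 (2247 in both lists, 1189 salt only and 627 control only). With a fold enrichment of at least 5 and a log10 false discovery rate of at most −20, chosen after seeing the data, it was 347 (92 salt only and 56 control only). Requiring a Roma peak to cover 50% of the M-81E peak gave 489 loci in both lists. With host genes of mean FPKM at least 1, the median host level was 6.27 in M-81E and 5.80 in Roma.

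Host genes called between strains under salt numbered 98, with 49 at a mean of at least 5 FPKM, where fewer genes were tested, and 117 with only the 2 groups fitted. Without salt they numbered 120, with 73 at that filter and 16 with only the 2 groups fitted. Salt calls were 2 in M-81E and 16 in Roma with only the 2 groups fitted, against 6 and 0, and the cause was not tested. The 2 calls in M-81E held 0 of those 6 genes. The difference of the salt changes gave 3 calls at a pseudocount of 0.1 and 1 after quantile scaling, against 0. Leaving out 1 library gave 22 to 216 calls between strains under salt, 27 to 244 without salt, 1 to 200 for salt in M-81E, 0 to 16 for salt in Roma and 0 to 66 for the difference; the lone sample of a group is then assumed to vary like the other groups. Under all 28 alternatives of the strain tests, more hosts of loci in both lists were higher than lower, and their median exceeded that of all genes by 0.4 to 0.89. Peak calling needs reads from the transcript, so this direction is not independent of how the loci were chosen under any setting. Of 59 called single-gene results, 12 were called under every alternative and 0 changed sign.

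With the replicate block, calls were 67 between strains under salt, 96 without salt, 1 for salt in M-81E, 0 in Roma and 0 for the difference. Deviations of same-numbered libraries correlated at −0.0376 to 0.0384, so no shift shared by same-numbered libraries was seen. The labels do not say whether the samples were paired. Motif shares were not run, as no genome was used. With 2 replicates and unknown depth, small differences could not be detected.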

Other observations

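Host genes annotated to flavonoid biosynthesis, a group picked after its values were seen, numbered 14, or 1.5% of hosts, against 0.288% of hosts of peaks shared with Roma and 0.528% of genes tested. Most carry glucosyltransferase terms for quercetin. SORBI_3002G085100, with a locus in both lists and a fold of up to 13.6, had 9.54 and 17.8 FPKM in M-81E salt and 18.7 and 14.1 in M-81E control, against 1.05 and 6.59 in Roma salt and 1.39 and 4.4 in Roma control. SORBI_3008G030100, annotated as a chalcone isomerase, an early enzyme of the pathway, had 161 and 163 FPKM in M-81E salt and 267 and 84.6 in M-81E control, against 64.1 and 74.8 in Roma salt and 135 and 106 in Roma control. Neither strain difference of these genes was called (limma adjusted p of 0.0874 to 0.694). SORBI_3004G087100 and SORBI_3004G106600 were listed at 0 in 1 library of a group and above 0 in the other within several groups, and no source used here says how reads of like genes of this family were divided.

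M-81E-only rows made up 14.4% of the M-81E 3' UTR rows on chromosome 5 (80 of 554), against 6.52% on chromosome 1 (198 of 3038). There were 11 hosts with several loci, and SORBI_3001G225100, with no GO term, had 3, all in both lists.

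The peak lists held 23 of 716 salt rows and 13 of 519 control rows with the same fold enrichment and false discovery rate as another row.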
